A study of Mus musculus with 12 samples.

Results

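The clustered protocadherins were examined in mIMCD3 cells, a mouse cell line of the inner medullary collecting duct. The 58 members were all genes of the normalized-count table whose Ensembl identifier carried a symbol of the *Pcdha*, *Pcdhb* or *Pcdhg* series, out of 47642 genes in the table. They lie side by side on the plus strand of chromosome 18 (GRCm38), with 14 genes in the alpha cluster (36930184 to 37187661), 22 in the beta cluster (37264938 to 37524479) and 22 in the gamma cluster (37661793 to 37841873). 2 Ensembl identifiers carried the symbol *Pcdha11*.

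RNA-seq was performed on 12 libraries, 4 each of wild-type (Wt), Pkd1-/- and Pkd2-/- cells, harvested 4 days after full confluency. All lines descend from collecting duct epithelium of mice with the SV40 early region transgene Tg(SV40E)Bri/7, so the controls carry this immortalizing transgene as well. The Pkd1-/- line carries genomic deletions of *Pkd1* on both alleles, and the Pkd2-/- line carries a deletion that removes part of *Pkd2*. Each mutant was represented by 1 clone, the wild-type line came from a cell repository, and the 4 libraries of a genotype came from separate dishes of the same line. The p-values therefore measure the spread between dishes of 1 line, and genotype and line cannot be told apart. Bulk RNA gives no isoform choice per cell, and fewer cells expressing an isoform cannot be told apart from less of its RNA per cell.

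Clustered protocadherins are cell adhesion molecules of the cadherin superfamily that recognise identical isoforms on a neighbouring cell. They are best known from neurons, where each cell uses a small set of isoforms picked by choosing among many promoters, a choice that involves CTCF, cohesin and DNA methylation. Each alpha and gamma isoform joins its own large variable exon to constant exons shared by its cluster, whereas each beta isoform is encoded by its own exon with no constant part. The C-type isoforms at the end of the alpha and gamma clusters are known to be used more constitutively than the others.

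Total normalized counts per library lay between 25966273 and 28027792, and 25060 genes had a count. *Pkd1*, which encodes polycystin-1, had 782 ± 112 normalized counts in Wt cells (SD, n = 4), 41.8 ± 8.81 in Pkd1-/- cells and 1209 ± 202 in Pkd2-/- cells. *Pkd2*, which encodes the channel polycystin-2, had 3971 ± 451 in Wt, 2711 ± 133 in Pkd1-/- and 3986 ± 124 in Pkd2-/- cells, so the sum over the gene does not show its partial deletion. Of 20 collecting duct and tubule markers, 14 had a mean of at least 10 in each line, while the water channel genes *Aqp2* and *Aqp4* were at 0 in all 12 libraries, and the vasopressin receptor gene *Avpr2* was at 0 in the Pkd2-/- libraries as well. Among these markers, *Scnn1g* (a sodium channel subunit) and *Krt19* (a keratin) were lower in both mutants, and *Gata3* (a transcription factor) was lower in Pkd1-/- cells. *Elf5* was called higher in Pkd1-/- cells at a mean of 5.75 against 0.25. Of the 17 markers tested, 1 was called higher and 3 lower in Pkd1-/- cells, where 2.96% and 3.28% of all tested genes were. In Pkd2-/- cells 0 were called higher and 2 lower, where 3.24% and 6.38% of all tested genes were. The median log2 fold change of the markers was -0.09 in Pkd1-/- and 0.18 in Pkd2-/- cells against Wt (all tested genes, 0.01 and -0.01).

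Counts were found in the beta and gamma clusters and in 0 genes of the alpha cluster. All 14 alpha genes, the C-type isoforms *Pcdhac1* and *Pcdhac2* included, were at 0 in all 12 libraries, as were *Pcdhga10* and *Pcdhgb8*. In a single library, a 0 is compatible with as many as 3 counts, a limit that covers counting error only. The other 42 members had a count somewhere, 35 of them with the mean of at least 1 across the 12 libraries that the test required (19 beta and 16 gamma). The 7 members below that limit had at most 3 counts in any library. A mean of at least 10 was reached by 13 beta and 8 gamma isoforms in Wt cells, by 11 and 8 in Pkd1-/- cells, and by 5 and 7 in Pkd2-/- cells.

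**Figure D1:**
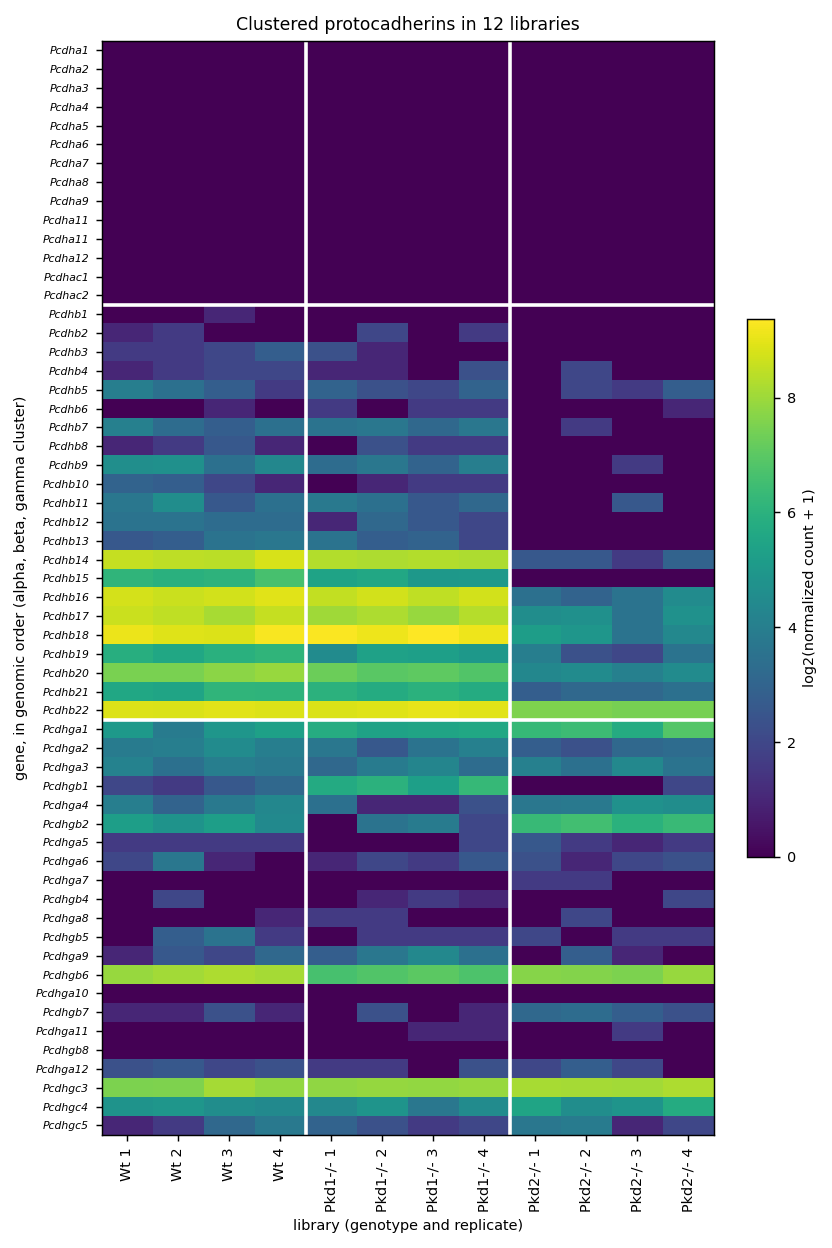
Normalized counts of the 58 clustered protocadherins (vertical axis, genomic order) in the 12 libraries (horizontal axis), coloured by log2(normalized count + 1). The 14 alpha genes are dark in every library, the bright block of *Pcdhb14* to *Pcdhb22* in the Wt and Pkd1-/- libraries is dim in the Pkd2-/- libraries except for *Pcdhb22*, and 8 beta isoforms are at 0 in all 4 Pkd2-/- libraries.

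Some of these zeros are limited by how reads are assigned. An alpha gene has a median of 2475 exon bases that no other annotated gene overlaps, against 3714 for a beta and 2587 for a gamma gene. Reads in the constant exons belong to all genes of the alpha or of the gamma cluster and cannot be given to 1 of them. *Pcdhga10* has 0 exon bases of its own when genes on the opposite strand are counted as overlapping, and the strand setting of the counting is not given in the sources used here. Of the 50-base words in an isoform's own exon sequence, a median of 12.5% recurred in a transcript of another annotated gene, on either strand, for alpha, 3.33% for beta and 1.23% for gamma genes, with a highest value of 24.9%, 9.52% and 16.6%. Reads from such words could be split between genes or left uncounted.

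In the beta cluster, Wt cells used the far end of the array. Summed over the 22 genes, the 4 Wt libraries held 2453 to 2954 normalized counts (2636 ± 232, SD, n = 4), the Pkd1-/- libraries 2374 to 2395 (2387 ± 9.61) and the Pkd2-/- libraries 243 to 303 (285 ± 28.0). The Pkd2-/- libraries were far below the others, and the Pkd1-/- libraries also lay below all Wt libraries. Per kilobase of own exon, the 9 adjacent genes *Pcdhb14* to *Pcdhb22* held 94.2% ± 1.301 of the cluster's level in Wt cells (SD, n = 4), 96.0% ± 0.72 in Pkd1-/- cells and 96.7% ± 2.30 in Pkd2-/- cells, so most of the beta level came from the same stretch in all 3 lines.

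The Pkd2-/- line held far less beta isoform RNA than the Wt line, and 17 of the 22 beta genes were called lower. Across the table, 9.62% of the 18552 genes tested were called between Pkd2-/- and Wt cells (adjusted p below 0.05 and a difference of 1 or more, up or down, on the scale of log2(normalized count + 1)), 3.24% higher and 6.38% lower. Of the 22 beta genes, 17 were called lower and 0 higher, 2 others were tested without a call, and 3 were below the limit for testing. The count is partly fixed by that limit, since 9 beta genes and 1 gamma gene passed it with a mean under 1 in Pkd2-/- cells and so through the other lines. Counted without any model, the 4 Pkd2-/- values of 16 of the 22 beta genes all lay below the 4 Wt values, and 0 lay above, where 14.8% of the genes with a count lay below and 12.9% above. The calls of *Pcdhb3*, *Pcdhb8* and *Pcdhb10*, the 3 lowest of the 17 in Wt cells, were lost under other settings, and the other 14 remained under every setting in which they were tested.

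**Figure D2:**
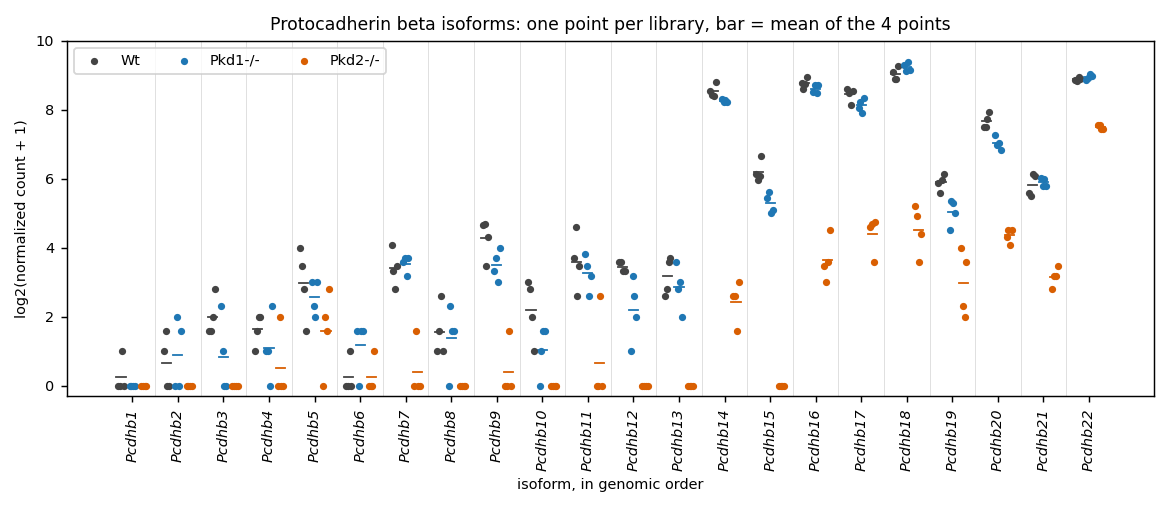
Levels of the 22 beta isoforms (horizontal axis, genomic order) as log2(normalized count + 1), with 1 point for each library and a bar at the mean of the 4 points of a genotype. The Wt and Pkd1-/- points lie close together in *Pcdhb14* to *Pcdhb22*, and the Pkd2-/- points lie below them in all 9, with the smallest distance at *Pcdhb22*.

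*Pcdhb14* (37447656 to 37456350) stood at 372, 346, 335 and 443 normalized counts in Wt 1 to 4, at 315, 297, 311 and 297 in Pkd1-/- 1 to 4, and at 5, 5, 2 and 7 in Pkd2-/- 1 to 4. The Pkd2-/- libraries kept 1.27% of the Wt mean, a log2 fold change of -6.10 (SE 0.22, adjusted p = 6.32e-14). *Pcdhb15* (37473540 to 37476340) stood at 69, 61, 66 and 100 in Wt, at 42, 48, 31 and 33 in Pkd1-/-, and at 0 in all 4 Pkd2-/- libraries. Against the floor of 3 counts per library it was at least 24.7-fold lower in Pkd2-/- cells, and the Pkd1-/- libraries also lay below all Wt libraries.

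*Pcdhb18* (37489465 to 37494505), the isoform with the highest level per kilobase in every Wt and every Pkd1-/- library, had 546, 476, 474 and 619 counts in Wt, 630, 556, 662 and 567 in Pkd1-/-, and 36, 29, 11 and 20 in Pkd2-/- cells. It kept 4.54% of its Wt mean in Pkd2-/- cells (log2 fold change -4.52, SE 0.23, adjusted p = 1.18e-11), while the Wt and Pkd1-/- values overlapped. *Pcdhb16* fell from a mean of 436 ± 42.7 to 12.5 ± 6.56 (SD, n = 4 each) and *Pcdhb17* from 351 ± 49.7 to 21.3 ± 6.95, with log2 fold changes of -5.12 and -4.04.

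*Pcdhb22* (37517871 to 37524479), the last gene of the array, was the exception in size among *Pcdhb14* to *Pcdhb22*. It stood at 467, 453, 493 and 472 in Wt, at 460, 484, 521 and 499 in Pkd1-/-, and at 189, 187, 172 and 173 in Pkd2-/- cells. It fell too, with a log2 fold change of -1.38 (SE 0.07, adjusted p = 1.80e-11), but 38.2% of its Wt mean remained. Both the Wt and the Pkd1-/- libraries lay above every Pkd2-/- library.

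Read in genomic order, the share of the Wt mean that remained in Pkd2-/- cells was 1.27% at *Pcdhb14*, 0% at *Pcdhb15*, 2.87% at *Pcdhb16*, 6.05% at *Pcdhb17*, 4.54% at *Pcdhb18*, 13.98% at *Pcdhb19*, 9.72% at *Pcdhb20*, 14.1% at *Pcdhb21* and 38.2% at *Pcdhb22*. From *Pcdhb14* to *Pcdhb22*, the remainder was larger toward the end of the array that faces the gamma cluster, although not at every step. The order did not extend upstream, where counts were low. There the tested *Pcdhb4* and *Pcdhb5* kept 33.3% each, *Pcdhb11* 10%, *Pcdhb7* 4.88% and *Pcdhb9* 2.56%. *Pcdhb3*, *Pcdhb8*, *Pcdhb10*, *Pcdhb12* and *Pcdhb13* kept 0%. The exons of *Pcdhb21* and *Pcdhb22* overlap in the annotation, so the 2 genes are not fully separate measurements. The log2 fold changes of *Pcdhb19*, *Pcdhb20* and *Pcdhb21* were -2.92 (SE 0.36), -3.30 (SE 0.16) and -2.67 (SE 0.22). In Pkd2-/- cells *Pcdhb19* had 15, 4, 3 and 11 counts, *Pcdhb20* 19, 22, 16 and 22 and *Pcdhb21* 6, 8, 8 and 10, all below the lowest Wt values of 47, 179 and 44.

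The isoforms upstream of *Pcdhb14* were low in all lines. In Wt cells the highest was *Pcdhb9* with 24, 25, 10 and 19 counts, which stood at 9, 12, 7 and 15 in Pkd1-/- and at 0, 0, 2 and 0 in Pkd2-/- cells. *Pcdhb7* had means of 10.3, 10.8 and 0.50 in Wt, Pkd1-/- and Pkd2-/- cells, and *Pcdhb11* of 12.5, 9 and 1.25. *Pcdhb12* and *Pcdhb13*, with Wt means of 10.0 and 8.50, were at 0 in all 4 Pkd2-/- libraries, at least 3.33-fold and 2.83-fold lower. *Pcdhb3* and *Pcdhb10*, at 3.25 and 4.25 in Wt cells, were at 0 there too, at least 1.08-fold and 1.42-fold lower, and *Pcdhb8* was at 2.25 in Wt cells, within the floor, and at 0 in Pkd2-/- cells. The call of *Pcdhb8* was lost when Wt replicate 2 or 3 or any 1 Pkd2-/- replicate was left out (adjusted p = 0.0556 to 0.123). The remaining beta members, *Pcdhb1*, *Pcdhb2*, *Pcdhb4*, *Pcdhb5* and *Pcdhb6*, had group means of at most 8.25 and no call.

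The beta isoforms of the Pkd1-/- line were closer to Wt, with few calls but with some measures outside the Wt range. Across the table, 6.24% of the tested genes were called between Pkd1-/- and Wt cells, 2.96% higher and 3.28% lower. Of the 22 beta genes, 0 were called higher and 1 lower. This was *Pcdhb12*, at 11, 11, 9 and 9 counts in Wt and 1, 8, 5 and 3 in Pkd1-/- cells (log2 fold change -1.26, SE 0.45, adjusted p = 0.0455). Its call was lost without any 1 of Wt replicates 1 to 4, Pkd1-/- replicates 1, 3 and 4 or Pkd2-/- replicates 1 and 2 (adjusted p = 0.0503 to 0.154). *Pcdhb15* and *Pcdhb20* passed the adjusted p (0.0149 and 0.00408) without reaching the fold limit, at log2 fold changes of -0.92 and -0.64. Without Wt replicate 2 or Pkd1-/- replicate 2, *Pcdhb15* reached it (log2 fold change -1.002 and -1.03). *Pcdhb3* was called lower without Pkd1-/- replicate 1 (adjusted p = 0.0316) and *Pcdhb10* without Wt replicate 4 (adjusted p = 0.0448). The Pkd1-/- values of 5 beta genes lay below all Wt values and 0 above, where 10.2% of genes with a count lay below and 10.0% above. For *Pcdhb14*, *Pcdhb16*, *Pcdhb17*, *Pcdhb18*, *Pcdhb21* and *Pcdhb22* the log2 fold changes were between -0.32 and 0.20, none past the test.

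Isoform use within the beta cluster was summarised by the effective number of isoforms, the inverse of the summed squared shares, which equals the number of isoforms if all were used alike. It was 7.48 ± 0.07 in Wt (SD, n = 4), 6.301 ± 0.30 in Pkd1-/- and 2.82 ± 0.39 in Pkd2-/- cells. *Pcdhb22* alone held 51.4% to 63.6% of the beta level per kilobase in the Pkd2-/- libraries, against 13.2% to 16.5% in the Wt libraries and 16.4% to 18.6% in the Pkd1-/- libraries. *Pcdhb18* held 20.2% ± 0.86 in Wt, 26.2% ± 2.34 in Pkd1-/- and 9.002% ± 3.63 in Pkd2-/- cells. Neither the effective numbers nor the shares of *Pcdhb18* overlapped between the lines. The narrower composition of the Pkd2-/- line was thus one of a higher share and a lower level of the same isoform. The rank order of the 22 isoforms gave Spearman correlations of 0.943 to 0.988 between Wt libraries, 0.915 to 0.970 between Wt and Pkd1-/- libraries and 0.696 to 0.836 between Wt and Pkd2-/- libraries. These are descriptions over 22 genes that share libraries and exon lengths.

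**Figure D3:**
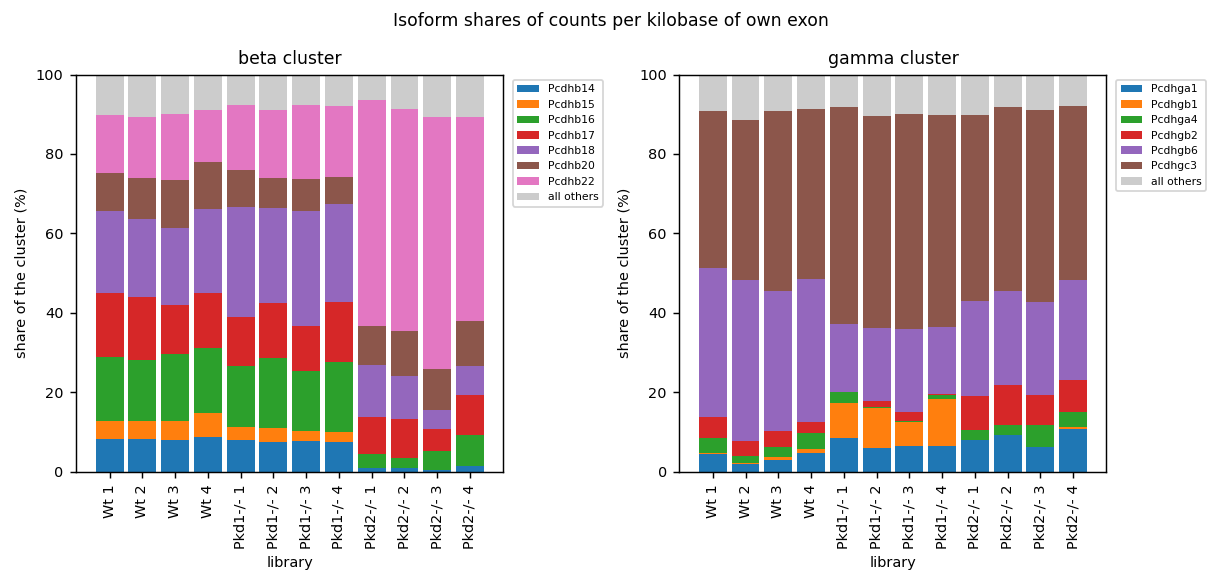
Share of each isoform in the level of its cluster (vertical axis, percent of counts per kilobase of own exon) in the 12 libraries, for the beta cluster (left) and the gamma cluster (right), with isoforms that reach 5% in at least 1 library in colour and the rest in grey. *Pcdhb22* takes 51.4% to 63.6% of the beta level in the Pkd2-/- libraries, and *Pcdhgb1* takes a visible share of the gamma level in the Pkd1-/- libraries.

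The gamma cluster did not fall as a whole in Pkd2-/- cells. Summed over its 22 genes, the Wt libraries held 586 to 746 normalized counts (649 ± 74.0, SD, n = 4), the Pkd1-/- libraries 500 to 561 (532 ± 26.0) and the Pkd2-/- libraries 665 to 850 (752 ± 75.9). Wt and Pkd2-/- sums overlapped. The Pkd1-/- sums lay below both. Single gamma isoforms moved in opposite directions in the mutant lines, which is described next by isoform type.

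The C-type isoform *Pcdhgc3* (37806364 to 37841873) was abundant in all lines, at 184, 189, 273 and 228 counts in Wt, 226, 236, 232 and 245 in Pkd1-/-, and 281, 275, 266 and 297 in Pkd2-/- cells. Wt overlapped both mutants, and the log2 fold changes were 0.12 (SE 0.11, adjusted p = 0.474) and 0.37 (SE 0.11, adjusted p = 0.00960), neither of them a call. *Pcdhgc4*, known to be needed for neuronal survival, had 25.0 ± 3.65 counts in Wt, 20.5 ± 6.61 in Pkd1-/- and 36.8 ± 13.8 in Pkd2-/- cells (SD, n = 4 each), with no call. *Pcdhgc5* had 6.00 ± 5.60, 4.00 ± 2.16 and 7.5 ± 6.45, with groups that overlapped. The annotated antisense gene BC037039 overlaps exons of *Pcdhgc3*.

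*Pcdhgb6* (37742094 to 37841873) was the other abundant gamma isoform, with 245, 268, 297 and 272 counts in Wt, 99, 113, 127 and 108 in Pkd1-/-, and 203, 197, 181 and 240 in Pkd2-/- cells. The 3 groups did not overlap, with Pkd1-/- lowest and Wt highest. It was called lower in Pkd1-/- cells (log2 fold change -1.27, SE 0.11, adjusted p = 5.08e-08), while in Pkd2-/- cells its log2 fold change of -0.40 (SE 0.11, adjusted p = 0.00639) did not reach the fold limit. Against each other, the Pkd2-/- value was higher by 0.87 on the log2 scale (SE 0.11, adjusted p = 2.59e-06).

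*Pcdhgb1* (37680233 to 37841870) was the only member called higher in Pkd1-/- cells in the fit of all 12 libraries. It had 3, 2, 5 and 8 counts in Wt, 52, 64, 38 and 77 in Pkd1-/-, and 0, 0, 0 and 3 in Pkd2-/- cells. All Pkd1-/- libraries lay above all others, and the log2 fold change against Wt was 3.495 (SE 0.48, adjusted p = 1.52e-05). It was also called lower in Pkd2-/- cells against Wt (adjusted p = 0.00409), although the 3 counts of a single Pkd2-/- library reached into the Wt range. This call was lost with a pseudocount of 5.

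*Pcdhgb2* (37689828 to 37841873), its close relative and near neighbour, showed the opposite order. It had 37, 27, 37 and 21 counts in Wt, 0, 11, 14 and 3 in Pkd1-/-, and 78, 91, 63 and 81 in Pkd2-/- cells. The groups did not overlap, with Pkd1-/- lowest and Pkd2-/- highest. It was called lower in Pkd1-/- cells (log2 fold change -2.57, SE 0.57, adjusted p = 0.00202) and was higher in Pkd2-/- than in Pkd1-/- cells by 3.92 (SE 0.57, adjusted p = 1.27e-05). Against Wt, the Pkd2-/- difference of 1.36 (SE 0.57, adjusted p = 0.0650) was no call. The exact two-sided permutation test gave an unadjusted p = 0.0286, the smallest it can give with 4 libraries against 4. Any gene whose groups do not overlap gets this p, and 12.9% of genes with a count lay above and 14.8% below all Wt libraries. Without Pkd1-/- replicate 1 or 3, which enter the limma test through the spread shared by the 3 lines, the Pkd2-/- difference from Wt became a call (adjusted p = 0.00313 and 0.0397). *Pcdhgb1* and *Pcdhgb2* share 15.8% and 15.3% of their 50-base words with each other, so reads in those stretches may be uncounted in both.

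*Pcdhga1* (37661793 to 37841873), the first gene of the cluster, rose in the Pkd2-/- line. It had 32, 14, 29 and 39 counts in Wt, 55, 41, 43 and 47 in Pkd1-/-, and 76, 85, 54 and 115 in Pkd2-/- cells. Both mutants lay above all Wt libraries, by 0.77 on the log2 scale in Pkd1-/- (SE 0.27, adjusted p = 0.0434, under the fold limit) and by 1.54 in Pkd2-/- cells (SE 0.27, adjusted p = 0.000132).

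The other gamma isoforms were low. *Pcdhga4* had means of 13.5 ± 5.00 in Wt, 4.00 ± 4.24 in Pkd1-/- and 18.5 ± 7.05 in Pkd2-/- cells and was called lower in Pkd1-/- cells (log2 fold change -1.84, SE 0.49, adjusted p = 0.00830). *Pcdhga2* had 16.5 ± 3.70, 11.0 ± 4.55 and 6.75 ± 2.22 and was called lower in Pkd2-/- cells (adjusted p = 0.00955), a call lost with a pseudocount of 5. *Pcdhgb7* had 1, 1, 4 and 1 counts in Wt and 8, 9, 6 and 4 in Pkd2-/- cells, with values that touched at 4. Its call as higher (log2 fold change 1.57, adjusted p = 0.0256) was lost without Wt replicate 1, 2 or 4 or Pkd2-/- replicate 1 or 2 (adjusted p = 0.0592 to 0.0736). *Pcdhga9* had means of 4.25, 12 and 1.75 and no call against Wt, although it was called lower in Pkd2-/- cells without Wt replicate 1 or Pkd2-/- replicate 2 (adjusted p = 0.0461 and 0.0120), and called higher in Pkd1-/- cells when only those 2 genotypes were fitted (log2 fold change 1.40, adjusted p = 0.0394). *Pcdhga3* was at 13.8, 12.3 and 14.3, with log2 fold changes of -0.20 and 0.02. The 8 gamma genes not named here had at most 12 counts in any library and no call against Wt.

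**Figure D4:**
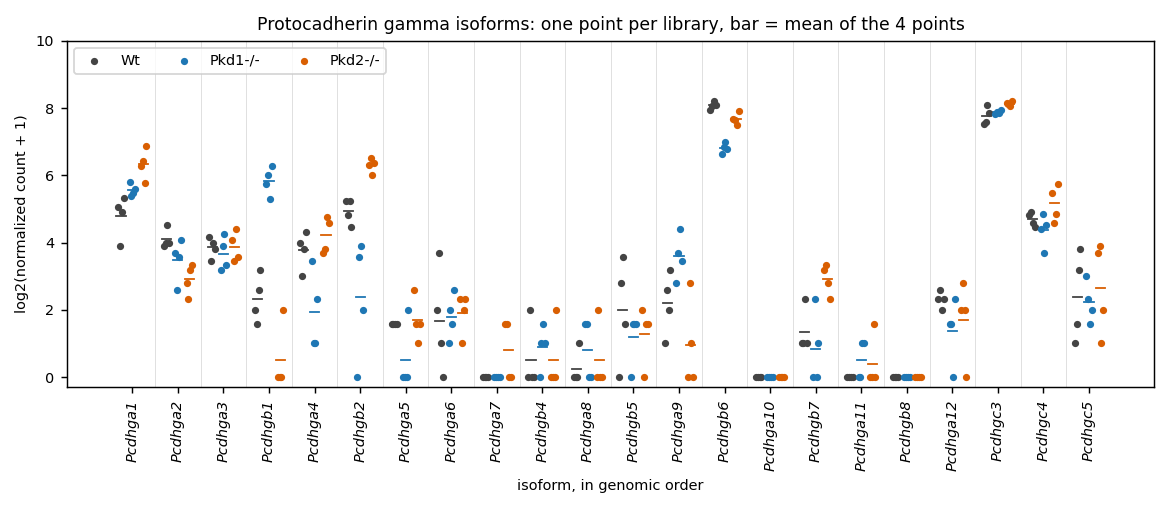
Levels of the 22 gamma isoforms (horizontal axis, genomic order) as log2(normalized count + 1), with 1 point for each library and a bar at the mean of the 4 points of a genotype. *Pcdhgc3* and *Pcdhgb6* are the highest in all lines, and *Pcdhgb1* and *Pcdhgb2* change places between the Pkd1-/- and the Pkd2-/- libraries.

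In total, 1 of the 22 gamma genes was called higher and 3 lower in Pkd1-/- cells, and 2 were called higher and 2 lower in Pkd2-/- cells, beside the shares of all tested genes given above. Without a model, 2 of the 22 gamma genes lay above and 2 below all Wt libraries in each mutant, a share no higher than that of all genes with a count (10.0% above and 10.2% below in Pkd1-/-, 12.9% and 14.8% in Pkd2-/- cells). Compared with each other, the mutants differed in 19 members, 3 of them higher and 16 lower in Pkd2-/- cells, where 4.53% of all tested genes were called higher and 7.23% lower. The 16 were 14 beta isoforms, *Pcdhgb1* and *Pcdhga9*, and the 3 were *Pcdhga4*, *Pcdhgb2* and *Pcdhgb7*. Both mutants are compared with the same 4 Wt libraries, so their calls are not independent of each other.

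The composition of the gamma cluster depended on the exon length used. Per kilobase of own exon, *Pcdhgc3* held 42.0% ± 2.69 of the gamma level in Wt (SD, n = 4), 53.9% ± 0.60 in Pkd1-/- and 46.4% ± 1.86 in Pkd2-/- cells, and *Pcdhgb6* held 37.3% ± 2.36, 18.2% ± 1.96 and 24.0% ± 0.80. *Pcdhgc3* led in every library but 1 of Wt, where *Pcdhgb6* led. With only genes on the same strand counted as overlapping, the length of *Pcdhgc3* grew and *Pcdhgb6* led in all 4 Wt libraries, at 46.6% ± 2.37 against 28.3% ± 2.28. The effective number of gamma isoforms was 3.103 ± 0.14 in Wt, 2.94 ± 0.06 in Pkd1-/- and 3.44 ± 0.12 in Pkd2-/- cells. With that other length it was 3.27, 4.14 and 4.35, so whether Pkd1-/- cells used fewer or more isoforms than Wt cells turned with the length. Spearman correlations over the 22 gamma isoforms were 0.813 to 0.950 between Wt libraries, 0.734 to 0.879 between Pkd1-/- libraries, 0.648 to 0.841 between Wt and Pkd1-/- libraries, 0.698 to 0.883 between Wt and Pkd2-/- libraries, and 0.524 to 0.729 for Pkd1-/- with Pkd2-/- libraries, so the ranges within and between lines overlapped in part.

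Genes around and between the clusters were not called lower with the beta isoforms in the Pkd2-/- line. Of 34 protein-coding genes within 500 kb of the clusters or between them, 32 were in the table and 26 were tested. Of these, 0 were called in Pkd2-/- cells against Wt by limma, where 9.62% of all tested genes were called and 6.38% were called lower. Among 26 genes those shares come to few calls, so the 0 does not set these genes apart. Of the 26, 11 passed the adjusted p alone, as did 42.3% of all tested genes, and the median log2 fold change was -0.03 (all tested genes, -0.01). *Taf7*, a subunit of the general transcription factor TFIID that lies between the beta and gamma clusters, had 755 ± 69.8 counts in Wt, 908 ± 64.9 in Pkd1-/- and 939 ± 44.9 in Pkd2-/- cells (SD, n = 4), log2 fold changes of 0.27 and 0.32. *Slc25a2*, a mitochondrial carrier gene next to it, had 14.3 ± 2.50, 5.50 ± 3.79 and 9.50 ± 3.00 and was called lower in Pkd1-/- cells (log2 fold change -1.38). In Pkd1-/- cells E230025N22Rik was called higher, from 8.75 to 22.3, and *Pcdh1*, a non-clustered protocadherin downstream of the gamma cluster, lower, from 5.75 to 1.25. The read-through genes Gm42416, Gm37013 and Gm37388, which overlap alpha or gamma exons, were at 0 in every library. Reads in exons shared between genes cannot be given to 1 of them, so these values do not show that such transcripts were absent.

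**Figure D5:**
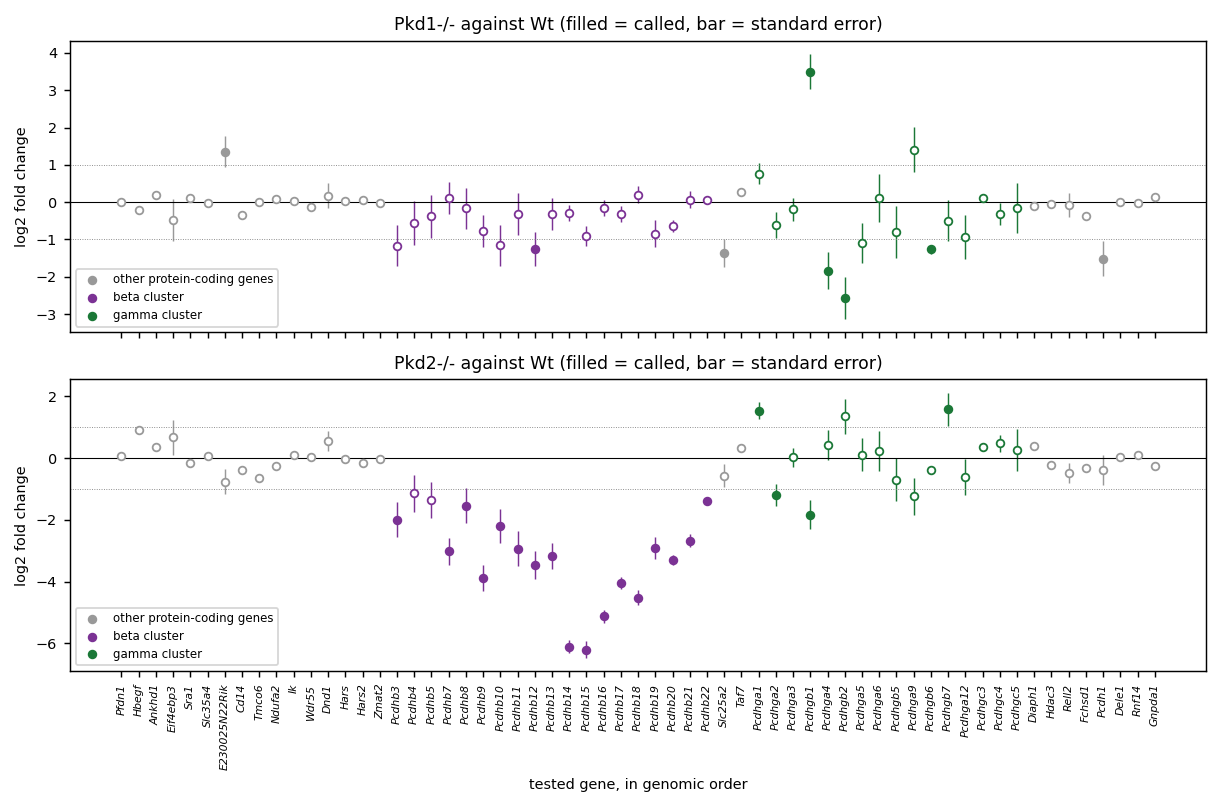
Log2 fold changes (vertical axis, on the scale of log2(normalized count + 1), bar = standard error) of tested clustered protocadherins and nearby protein-coding genes in genomic order, for Pkd1-/- (top) and Pkd2-/- (bottom) against Wt cells, with called genes filled. In the Pkd2-/- panel the beta genes form a trough that rises to -1.38 at *Pcdhb22*, while the other protein-coding genes lie between -0.77 and 0.92. Fitted values of beta genes at or near 0 counts depend on the pseudocount.

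Genes for the known factors of promoter choice were read next. Of 31 genes for CTCF, cohesin, its loaders and releasers, DNA methylation and repressive chromatin, 30 were tested. In Pkd2-/- cells, 0 were called by limma against Wt, where 9.62% of all tested genes were called. Of the 30, 19 passed the adjusted p alone, as did 42.3% of all tested genes, and the median log2 fold change was 0.16 (all tested genes, -0.01). *Smchd1*, a repressor of clustered protocadherin genes, had 7084 ± 406 counts in Wt, 7367 ± 430 in Pkd1-/- and 10858 ± 754 in Pkd2-/- cells, higher than in Wt by 0.06 and 0.62 on the log2 scale (SE 0.06 each). *Ctcf*, the insulator protein that binds their promoters, had 4547 ± 335, 5459 ± 186 and 5765 ± 286, higher by 0.27 and 0.34. In Pkd1-/- cells 1 gene of the list was called, where 6.24% of all tested genes were. It was the DNA demethylase gene *Tet1*, lower at 17.0 ± 1.15 against 49.0 ± 8.16 counts (log2 fold change -1.46). *Tet1* was lower in Pkd2-/- cells as well, at 30.0 ± 6.27 (log2 fold change -0.70, limma adjusted p = 0.0126), under the fold limit. Of the list, 13 passed the adjusted p alone in Pkd1-/- cells, as did 27.1% of all tested genes. Whether these values bear on the isoforms was not tested.

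Of 27 genes for partners, signalling and processing of clustered protocadherins, 24 were tested. *Marcks*, an actin-binding protein kinase C substrate downstream of gamma protocadherins, was lower in both mutants, at 4646 ± 337 in Wt, 402 ± 29.5 in Pkd1-/- and 791 ± 16.8 in Pkd2-/- cells (log2 fold changes -3.53 and -2.55). *Ptk2b*, which encodes the kinase Pyk2 that these proteins bind, was lower in Pkd2-/- cells, at 63.8 ± 5.91 against 400 ± 21.3 (log2 fold change -2.63). It was lower in Pkd1-/- cells as well, at 213 ± 16.0 (log2 fold change -0.91, adjusted p = 1.13e-06), under the fold limit. The list had 0 genes called higher in either mutant, where 2.96% of all tested genes were called higher in Pkd1-/- and 3.24% in Pkd2-/- cells. It had 1 called lower in Pkd1-/- and 2 in Pkd2-/- cells, where 3.28% and 6.38% of all tested genes were. The median difference of its tested genes on the log2 scale was 0.02 for Pkd1-/- and -0.11 for Pkd2-/- against Wt.

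Markers of other cell types were read beside these results. Among 7 neuron markers, whose sum was 664 to 765 in Wt, 833 to 907 in Pkd1-/- and 385 to 528 in Pkd2-/- libraries, *Snap25* was at 0 throughout. *Map2*, a microtubule-associated protein gene, fell from 575 ± 61.4 in Wt to 0.25 ± 0.50 in Pkd2-/- cells with the beta isoforms, and *Syt1* from 5.25 to 0, while *Tubb3* rose from 123 to 424. *Syt1* was higher in Pkd1-/- cells, at 16.3, the only call among the 4 neuron markers tested there. The lowest log2 fold change of those 4 against Wt was -0.84, in the opposite direction and without a call. The intercalated cell marker *Atp6v1b1* was at 57.0, 513 and 1.00 in Wt, Pkd1-/- and Pkd2-/- cells, with *Foxi1* at 0. The other tested marker of these 4 genes went the other way in Pkd1-/- cells (log2 fold change -0.70) without a call. The proximal tubule marker *Lrp2* was at 508, 46.3 and 935, called lower in Pkd1-/- cells. The other tested proximal tubule marker of 4 went the other way there (log2 fold change 1.03) without a call, and *Slc34a1* was at 0 in every library. Fibroblast marker sums were 25 to 51, 87 to 101 and 15 to 97, with *Col3a1* called higher in Pkd1-/- cells (66.3 against 4.75), and *Ptprc* of leukocytes was called lower there (0.25 against 3.00). The endothelial genes *Cdh5* and *Kdr* were at 0 in every library. The part of these genes in the isoform results was not tested.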

How the data were processed

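RNA was sequenced from 4 dishes each of Wt, Pkd1-/- and Pkd2-/- mIMCD3 cells. Trim Galore, HISAT2 with the mm10 genome and htseq-count were used by the authors to obtain gene counts, which were then scaled by DESeq2 size factors. The deposited values are score values, namely these normalized counts rounded to whole numbers by the authors. Whole reads could not be recovered, so no count test was used. The annotation release and the strand setting are not given in the sources used here. 0 sample columns were left unused.

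Symbols, coordinates and exon lengths came from GENCODE M21 (GRCm38), which held 47223 of the table's identifiers and lacked 419. limma 3.58.1 (R 4.3.3, lmFit and eBayes with trend) was fitted to log2(normalized count + 1) of all 12 libraries, for genes with a mean of at least 1, with Benjamini-Hochberg adjustment over all 18552 genes tested. Fold changes on this scale understate those of low genes. The procedure was tested on simulated data. Single members were also compared by two-sided exact permutation tests. Shares and effective numbers are descriptions (Python 3.11.15).

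The members and lists were chosen with earlier results of these data known. Named were all members with a mean of at least 10 in a genotype, the 5 C-type isoforms, members and list genes called against Wt, *Pkd1*, *Pkd2*, *Taf7*, *Slc25a2*, *Ctcf* and *Smchd1*. Other members, given by range and counts, are named only where a count needed it. Other pseudocounts, filters, scalings, lengths, a replicate block and leaving out each library were tried. The same-strand exon length was chosen after seeing the data. The members lie on chromosome 18 and their sequences are not reported here.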

Additional observations from a re-analysis of the deposited data

Results flagged for a closer look

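Within a genotype, 81 groups of 4 values were examined for 1 library far from the other 3, and 7 stood out by Dixon's criterion, where chance alone gives about 1 in 20 groups of continuous values. That rate does not hold for low whole counts, where 3 tied values make any different value stand out, so the 7 cannot be read as an excess. In 4 of them a single Pkd2-/- library held all the counts of a low isoform, with *Pcdhb7* at 2, *Pcdhb9* at 2, *Pcdhb11* at 5 and *Pcdhgb1* at 3 while the other 3 libraries were at 0. *Pcdhga9* had 6 counts in 1 Pkd2-/- library and 0, 0 and 1 in the others. In Wt cells, *Pcdhga2* had 22 counts in 1 library against 14, 15 and 15, and *Pcdhgb7* had 4 against 1, 1 and 1. Apart from *Pcdhga2*, each is a difference of at most 6 counts. The cause was not tested.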

How the results depend on the processing

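The number of members called against Wt was 5 in Pkd1-/- and 21 in Pkd2-/- cells, and 19 between the mutants. Without a fold limit the first became 8, with 2 higher and 6 lower. With a mean of at least 10 required, the second became 13, with 1 higher and 12 lower among 19 members tested. Leaving out 1 library gave 4 to 6, 19 to 22 and 19 to 21. The replicate numbers did not pair the libraries (r of same-number deviations -0.07 to 0.20, and 3 of 12 libraries correlated best with their own number), and a replicate block gave 4, 22 and 19, losing the call of *Pcdhb12* in Pkd1-/- cells and gaining that of *Pcdhgb2* in Pkd2-/- cells. The effective number of beta isoforms in Wt cells was 7.32 with all exon bases, 6.86 with no length and 7.33 with own exon bases on the same strand, and with no length it was 5.95 in Pkd1-/- and 2.36 in Pkd2-/- cells. For gamma isoforms the 3 lengths gave 3.26, 3.38 and 3.27 in Wt, 3.88, 3.80 and 4.14 in Pkd1-/-, and 4.19, 4.15 and 4.35 in Pkd2-/- cells. Leaving out 1 library moved the beta numbers within 7.45 to 7.51, 6.18 to 6.42 and 2.66 to 2.98, and the gamma numbers within 3.04 to 3.14, 2.92 to 2.96 and 3.38 to 3.48. Of 87 comparisons of named members, 56 kept direction and call under all 20 alternatives, counted where a member was tested. In 7 that were not calls, leaving out 1 library turned the sign of the log2 fold change, over ranges against Wt of -0.084 to 0.34 for *Pcdhb7*, -0.49 to 0.29 for *Pcdhb8*, -0.66 to 0.0071 for *Pcdhb11*, -0.043 to 0.17 for *Pcdhb21* and -0.63 to 0.31 for *Pcdhgc5* in Pkd1-/- cells, and of -0.15 to 0.16 for *Pcdhga3* and -0.20 to 0.81 for *Pcdhgc5* in Pkd2-/- cells. Counts below about 3 per library set the limit of depth for the upstream beta and most gamma isoforms.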

Other observations

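The non-clustered protocadherins, relatives that lie outside the clusters, differed between the lines. Of 12, 9 were tested, 6 were called higher and 1 lower in Pkd1-/- cells, and 0 higher and 5 lower in Pkd2-/- cells, where 2.96% and 3.28%, and 3.24% and 6.38%, of all tested genes were called. The counts are partly fixed by the limit for testing, a mean of at least 1 across the 12 libraries. *Pcdh17* and *Pcdh20* had a mean under 1 in Wt cells and so passed it through other lines. The same holds for *Pcdh7*, *Pcdh9* and *Pcdh11x* in Pkd2-/- cells. *Pcdh10* had 76.8 ± 7.59 counts in Wt (SD, n = 4), 3240 ± 187 in Pkd1-/- and 7.75 ± 3.77 in Pkd2-/- cells. *Pcdh11x* had 20 ± 8.83, 661 ± 29.6 and 0.25 ± 0.50, *Pcdh9* had 11.3 ± 2.22, 256 ± 25.0 and 0.25 ± 0.50, and *Pcdh7* had 6.75 ± 3.86, 236 ± 31.6 and 0.50 ± 0.58. The log2 fold changes in Pkd1-/- cells were 5.38 for *Pcdh10*, 5.08 for *Pcdh11x*, 4.40 for *Pcdh9* and 5.07 for *Pcdh7*. *Pcdh17* and *Pcdh20*, each at 0.50 in Wt cells, reached 284 ± 35.1 and 5.25 ± 4.72 in Pkd1-/- cells. *Pcdh18* fell in Pkd2-/- cells, from 301 ± 32.5 to 13.5 ± 6.45 (log2 fold change -4.48), and *Pcdh1* was the gene called lower in Pkd1-/- cells. Both mutants share the Wt libraries, and each is 1 clone.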
